A study of Arabidopsis thaliana with 123 samples.

Results

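Dry seeds of L2-1, a transgenic Arabidopsis thaliana line in Col-0 to which DOG1 from the accession Cvi was added, were compared with dry wild-type Col-0 seeds. The members are 6 RNA sequencing libraries, 3 of L2-1 and 3 of wild type, chosen by genotype and stage from the 123 libraries of the series, and the comparison runs over all genes. Both groups were dry-stage seed, 26 days or more after pollination, from plants that were grown together in the experimental round called batch B, and each RNA sample pooled the seeds of several siliques. L2-1 stands for 1 transgenic line, and the promoter, copy number and insertion site of its transgene are not given in the sources used here. Beside this pair stand dry seeds of dog1-4 and aba2-1, both labelled as knock-outs in Col-0, with 3 libraries each. Levels are also given for dry seeds of abi3-6, abi3-12, dog1-4 aba2-1, abi3-12 aba2-1, abi3-12 dog1-4, abi3-12 dog1-4 aba2-1 and abi3-12 dog1-4 cyp707a2, with 3 libraries each and of the same batch.

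DOG1 (DELAY OF GERMINATION 1, AT5G45830, on chromosome 5) is a main regulator of primary seed dormancy, and its natural variation between accessions, with a strong allele in Cvi, underlies differences in dormancy. The protein builds up during seed maturation, binds the phosphatases AHG1 and AHG3 and so acts beside the signalling of abscisic acid (ABA), the hormone that imposes dormancy. Gibberellins oppose ABA and promote germination, and DELLA proteins such as RGL2, GAI and RGA restrain gibberellin responses. Dry seeds hold stored transcripts of storage proteins, late embryogenesis abundant (LEA) proteins and heat shock proteins.

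The L2-1 libraries held 11792180, 12310219 and 15301594 counts and the wild-type libraries 12718649, 12844524 and 12531674. Spearman correlations of log2 levels were 0.9915 to 0.9916 among L2-1 libraries, 0.9909 to 0.9922 among wild-type libraries and 0.9879 to 0.9910 between the groups. The labels mention 3 replicates of pooled seeds and also 4 biological replicates, so whether libraries come from separate plants is not settled. The p-values measure the spread between libraries of a group, as estimated over all 92 libraries of batch B in the fit. Levels are given in CPM, the usual unit of gene counts relative to the library total, here scaled for library composition. The sample type was read from its markers. The 15 storage protein and oleosin genes summed to 109630 to 117490 CPM in L2-1 and 102590 to 119780 CPM in wild type. The 25 nuclear photosynthesis genes summed to 169 to 182 CPM in L2-1 and 153 to 182 CPM in wild type, with PSAH2 and RBCS1B at 0 in all 6 libraries. The 9 seed coat genes summed to 12.0 to 14.9 CPM in L2-1 and 13.0 to 14.8 CPM in wild type, with TT12 and MUM2 at 0. The 9 endosperm genes summed to 18957 to 23277 CPM in L2-1 and 22012 to 23248 CPM in wild type, nearly all from the extensin-like gene EPR1 (AT2G27380, at 20922 CPM in L2-1 and 22647 CPM in wild type), with ZOU, PHE1, FIS2 and MEA at 0. No gene of these 4 lists was called, and the ranges of both groups overlapped in each.

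Few genes differed between L2-1 and wild type, and most of those were lower in L2-1. Of 20912 genes tested with edgeR's quasi-likelihood test, 212 (1.01%) were called at an adjusted p under 0.05. L2-1 was higher for 61 genes (0.292%) and lower for 151 (0.722%). The changes were moderate: the median log2 fold change was 0.60 for the genes called higher and -0.94 for those called lower, and 0 over all genes tested. A change of at least 2-fold was fitted for 15 genes that rose and 71 that fell. Of the genes that fell, 12 had no count in any L2-1 library. In bulk seed, fewer cells of a type and less RNA per cell cannot be told apart. The number of calls depended on the fit. With the dry groups of batch B alone in the fit, 1001 genes (5.24%) were called, of which 359 were higher (1.88%) and 642 lower (3.36%). With L2-1 and wild type alone, 1045 (6.93%) were called, 447 higher (2.97%) and 598 lower (3.97%), so that 42.8% of the calls were higher, against 28.8% with all groups. The count with all groups was 88 without L2-1 replicate 1, 82 without L2-1 replicate 2 and 154 without L2-1 replicate 3. It was 172 without wild-type replicate 1, 77 without wild-type replicate 2 and 135 without wild-type replicate 3.

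**Figure D1:**
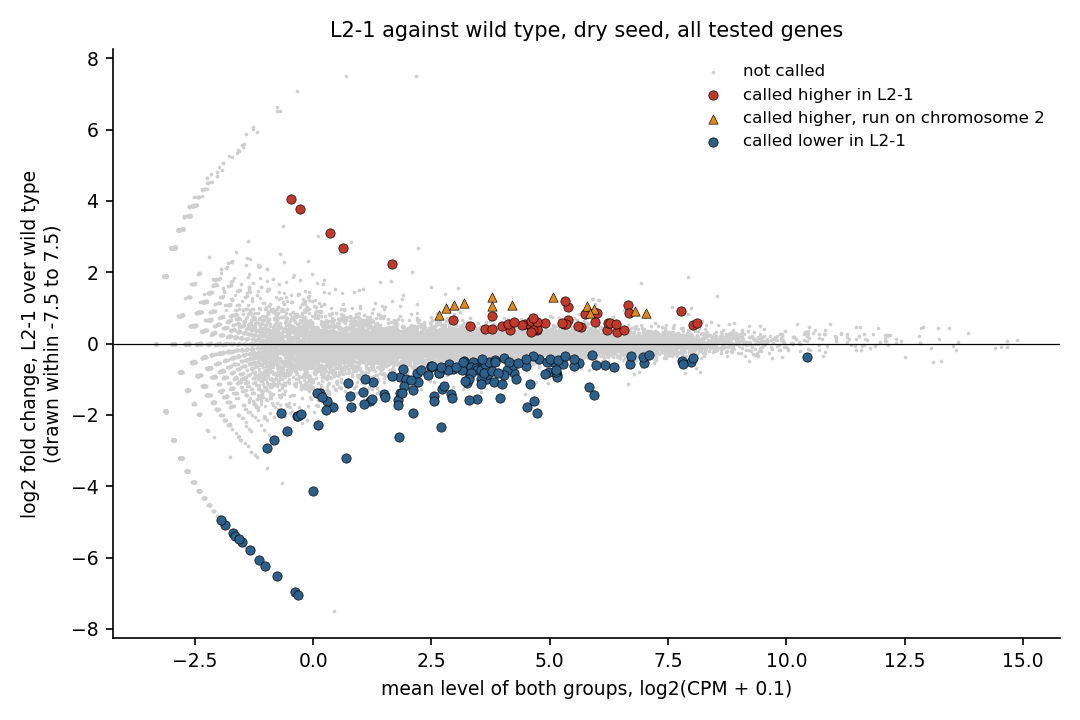
Log2 fold change of L2-1 over wild type (vertical axis) against the mean level of both groups on a log2 scale (horizontal axis) for the 20912 tested genes. Coloured points are the 61 genes called higher, of which triangles mark the 13 in the run on chromosome 2, and the 151 called lower. The median log2 fold change was 0.60 for the genes called higher and -0.94 for those called lower.

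DOG1 itself was read first, because the line adds a DOG1 allele. Its level was 41.0, 42.1 and 37.1 CPM in the L2-1 libraries, against 40.6, 34.1 and 24.4 CPM in wild type. The groups overlapped, and the third wild-type library was the lowest. DOG1 averaged 40.1 ± 2.60 CPM in L2-1 and 33.0 ± 8.15 CPM in wild type (SD, n = 3 each), which differ by 0.28 on the log2 scale (SE 0.23), and the gene was not called (adjusted p 0.807). The estimate lay between 0.10 and 0.45 under all 14 alternatives, none of which called it. How reads of the Cvi allele were aligned to the Col-0 reference, and whether reads were counted by strand, is not recorded, so these values do not show that total DOG1 RNA was unchanged. In dog1-4 seed the gene averaged 1.12 CPM, a log2 fold change of -4.87 from the same wild-type libraries (adjusted p 1.76e-18).

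Across the other dry lines, the DOG1 level of L2-1 came after that of aba2-1 (52.4 ± 3.38 CPM) and before those of abi3-12 (23.4 ± 2.33 CPM), abi3-12 aba2-1 (9.58 ± 0.878 CPM) and abi3-6 (6.18 ± 0.536 CPM), with n = 3 each. All lines that carry dog1-4 had means between 0.776 and 1.12 CPM. The L2-1 libraries, at 37.1 to 42.1 CPM, did not overlap those of aba2-1, which lay between 48.5 and 54.4 CPM. None of the 5 tested genes on either side of DOG1 was called. The ABA receptor gene PYL12, close to DOG1 in gene order, was at 41.2, 41.5 and 40.5 CPM in L2-1 and 30.9, 23.6 and 33.6 CPM in wild type (log2 fold change 0.48, adjusted p 0.211). The 2 groups did not overlap for PYL12, but the difference did not pass the test over all genes.

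The strongest block of higher transcripts in L2-1 was not at DOG1 but on chromosome 2. There, 13 of 19 consecutive tested genes, from AT2G46420 to RS31a (AT2G46610), were called higher, which is 21.3% of all genes called higher. Elsewhere in the genome, called genes separated by at most 3 other tested genes formed no stretch of more than 2 in the same direction. The 13 changes were alike in size, with log2 fold changes between 0.80 and 1.32 and a median of 1.04, which is 2.06-fold. Among the 12 tested genes on each side of the run, 1 was called, ROPGAP3, which was lower in L2-1 at 7.18 CPM, against 12.7 CPM in wild type (log2 fold change -0.83, adjusted p 0.0013).

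The run holds 2 genes of mitochondrial proteins. OXA1L, an inner membrane protein related to the yeast insertion factor Oxa1, was at 74.8, 70.5 and 77.4 CPM in L2-1, against 36.2, 34.9 and 37.1 CPM in wild type. The L2-1 libraries all stood far above the wild-type libraries, and the log2 fold change of OXA1L was 1.04 (SE 0.08), with the smallest adjusted p of the comparison, 8.56e-15. SDH4, a subunit of succinate dehydrogenase, was at 74.7, 71.3 and 77.2 CPM in L2-1, against 41.7, 38.1 and 43.5 CPM in wild type (log2 fold change 0.86, adjusted p 2.05e-10). SDH8, another gene of succinate dehydrogenase just outside the run, was at 56.0, 56.4 and 42.4 CPM in L2-1, against 39.5, 30.4 and 41.3 CPM in wild type, and was not called.

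The run also holds genes of nuclear regulation. ARF11, an auxin response factor, was at 17.6, 17.7 and 20.2 CPM in L2-1, against 9.88, 8.72 and 8.16 CPM in wild type (log2 fold change 1.05, adjusted p 2.89e-07). AIB, an ABA-inducible bHLH transcription factor also named JAM1 for its part in jasmonate responses, was at 11.2, 11.4 and 9.23 CPM in L2-1, against 5.67, 4.57 and 4.76 CPM in wild type (log2 fold change 1.08, adjusted p 9.74e-08). RS31a, a splicing factor rich in serine and arginine, was at 23.8, 23.5 and 27.1 CPM in L2-1, against 9.14, 12.6 and 13.4 CPM in wild type (log2 fold change 1.08, adjusted p 4.70e-07). For all 3 genes the lowest L2-1 library stood above the highest wild-type library.

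PI4K GAMMA 4, annotated as a phosphoinositide 4-kinase, was at 81.6, 82.4 and 78.4 CPM in L2-1, against 47.4, 39.7 and 37.1 CPM in wild type. AT2G46520, annotated as a cellular apoptosis susceptibility protein, the family of exportins that return importin alpha to the cytoplasm, averaged 170 ± 5.25 CPM in L2-1 and 93.7 ± 3.47 CPM in wild type (SD, n = 3 each). AT2G46560, a WD-40 repeat protein, averaged 146 ± 4.01 CPM in L2-1 and 77.4 ± 5.29 CPM in wild type. The largest folds of the run were those of AT2G46540 (47.8 ± 5.19 CPM in L2-1 and 19.2 ± 3.72 CPM in wild type, log2 fold change 1.32) and AT2G46420, a helicase with a zinc finger (19.5 ± 1.98 CPM in L2-1 and 7.84 ± 0.424 CPM in wild type, 1.31). The remaining genes called were AT2G46490 (log2 fold change 0.99), AT2G46580, which belongs to the pyridoxamine phosphate oxidase family (1.15), and AT2G46572, annotated as other RNA (0.80). Of the 13 calls, 12 held under all 14 alternatives. The exception was AT2G46572, whose call was lost with scaling by library totals and when any library but wild-type replicate 3 was left out.

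Not every gene in the run was higher. AT2G46550, which follows AT2G46540, was at 57.1, 178 and 61.4 CPM in L2-1, against 108, 103 and 104 CPM in wild type (log2 fold change -0.09). One L2-1 library lay above all wild-type libraries and the other 2 below them. CNGC12, a cyclic nucleotide gated channel, was at 6.91, 5.41 and 4.88 CPM in L2-1, against 2.83, 3.72 and 4.13 CPM in wild type, a log2 fold change of 0.67 that was not called. The other 4 uncalled genes, CNGC3, AT2G46535, DAG2 and AT2G46600, averaged under 1 CPM in both groups. DAG2 encodes a DOF transcription factor that affects germination, and it held 1 to 3 counts in the L2-1 libraries and 1 to 4 counts in the wild-type libraries.

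**Figure D2:**
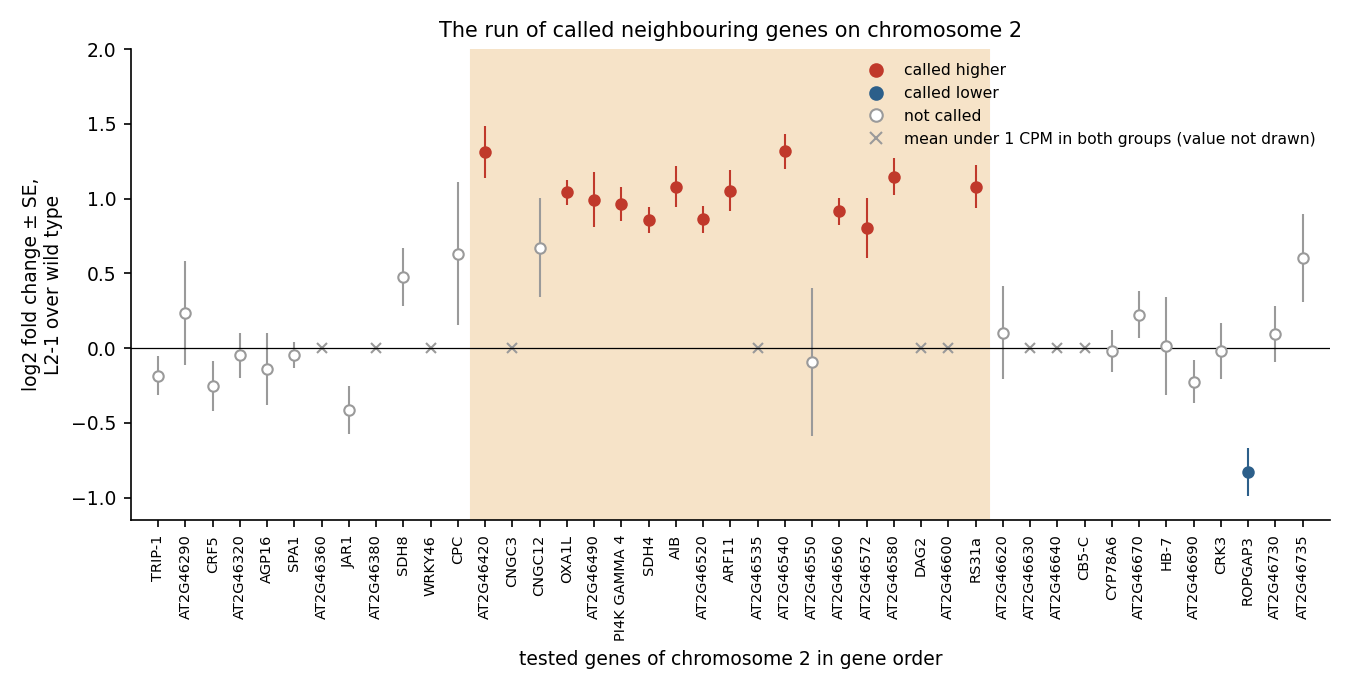
Log2 fold change of L2-1 over wild type with its SE (vertical axis) for tested genes of chromosome 2 in gene order (horizontal axis), with 12 genes on each side of the shaded run. The 13 filled red points lie between 0.80 and 1.32, and genes outside the shading scatter around 0.

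The levels of the 13 genes were also read in the other dry lines. All 13 were also called higher in L2-1 than in dog1-4 (log2 fold changes 0.72 to 1.74, median 1.10), where 18.7% of all tested genes were higher. All 13 were called higher than in aba2-1 as well (0.88 to 1.47, median 1.07), where the share of all genes was 10.1%. The 3 comparisons share the L2-1 libraries, and the 13 genes were picked for being higher in them, so these counts are no separate support. For 10 of the 13 genes the L2-1 mean was above the means of all 10 other dry groups. For 8 genes each L2-1 library was above each of the 30 other dry libraries, among them OXA1L, SDH4 and RS31a. Both counts also rest on genes picked for being higher in the L2-1 libraries. The share of all tested genes with such an order was not counted. The 3 genes with a higher mean elsewhere were AT2G46420, at 19.5 CPM in L2-1 and 23.8 CPM in abi3-12 dog1-4, AT2G46490, at 9.24 CPM in L2-1 and 23.3 CPM in abi3-6, and AIB, at 10.6 CPM in L2-1 and 13.3 CPM in abi3-6.

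**Figure D3:**
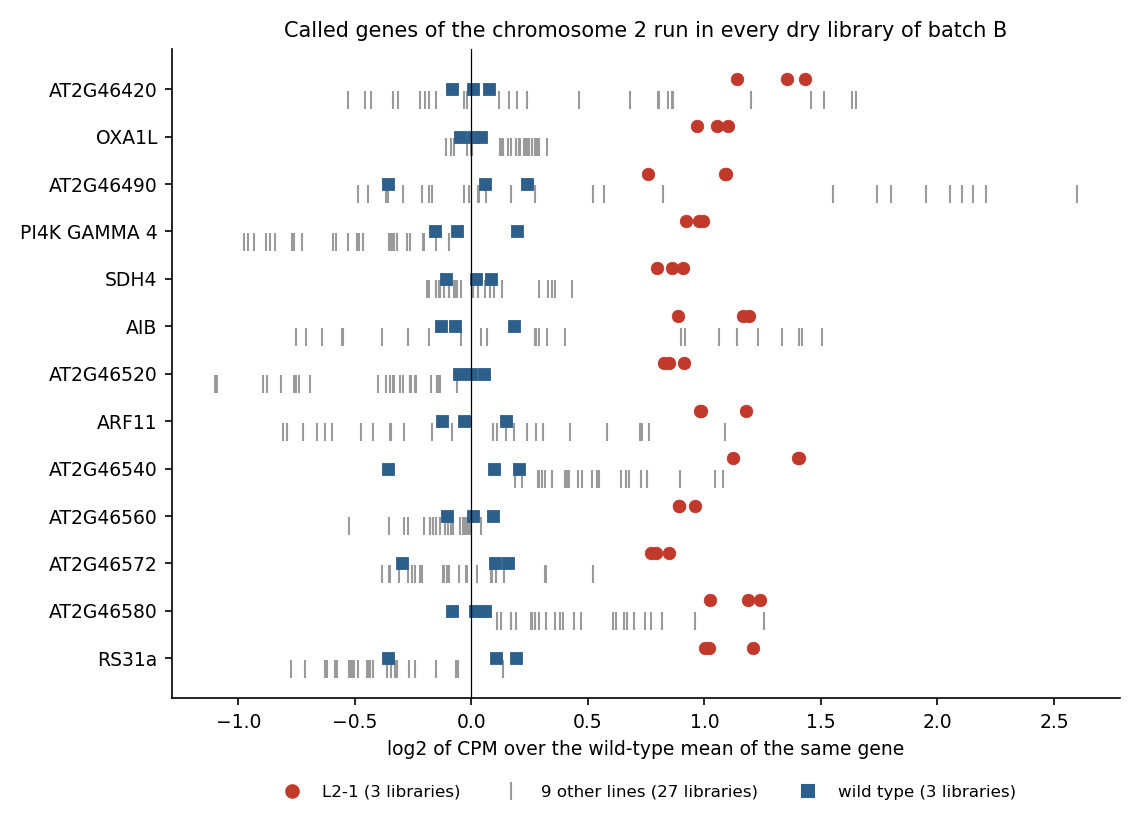
Level of the 13 called genes of the run in each of the 33 dry libraries of batch B, as log2 of CPM over the wild-type mean of the gene (horizontal axis). Red points are the 3 L2-1 libraries, grey ticks 27 libraries of 9 other lines and blue squares the 3 wild-type libraries. L2-1 stands to the right of all other libraries for 8 of the 13 genes, which were picked for being higher in L2-1 than in wild type.

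Outside this run, 48 genes were called higher in L2-1. The 3 largest rises among genes above 5 CPM with no overlap between libraries were 2 small heat shock protein genes and a homeobox gene. HSP17.6II, a cytosolic small heat shock protein of class II, was at 64.4, 47.4 and 53.3 CPM in L2-1, against 26.3, 21.5 and 25.0 CPM in wild type. HSP17.6II rose by 1.18 on the log2 scale (SE 0.24, adjusted p 0.00203), and the call was lost without L2-1 replicate 1. ATHSP22.0, a small heat shock protein of the endomembrane system, was at 62.2, 46.1 and 60.3 CPM in L2-1, against 30.5, 22.3 and 30.1 CPM in wild type (log2 fold change 1.02, adjusted p 0.0434). The groups were well apart, but the ATHSP22.0 call held under only 5 of 14 alternatives and was lost whichever library was left out, with DESeq2, with library totals and with no filter. WOX2, a homeobox gene that patterns the early embryo, was at 126, 159 and 123 CPM in L2-1, against 73.9, 58.1 and 61.3 CPM in wild type (log2 fold change 1.08, adjusted p 0.00753). The WOX2 call was lost when L2-1 replicate 2, wild-type replicate 2 or wild-type replicate 3 was left out.

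Among heat shock genes, called members were higher only. Of 22 heat shock proteins and factors tested, these 2 were called higher and none lower, where 0.292% of all tested genes were higher, with a median log2 fold change of 0.32, against 0 over all genes, and 19 of the 22 had a value above 0. Their summed level was 14307 to 14892 CPM in the L2-1 libraries and 10524 to 12847 CPM in the wild-type libraries, with no overlap. With the dry groups alone in the fit, 6 of the 22 were called higher, beside 1.88% of all genes. One of the added genes was HSP23.6-MITO, a mitochondrial small heat shock protein, at 166, 135 and 185 CPM in L2-1, against 107, 85.5 and 99.9 CPM in wild type (log2 fold change 0.73, adjusted p 0.169 in the main fit). HSFA9, the seed-specific heat shock factor, averaged 494 ± 30.2 CPM in L2-1 and 401 ± 38.6 CPM in wild type (SD, n = 3 each; log2 fold change 0.30, adjusted p 0.774). The chaperone gene HSP101 differed little, at 1128 CPM in L2-1 and 1139 CPM in wild type.

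Transcription factors stood among the other genes that rose, and the ones named here were chosen after their values were seen. NAC102, a NAC factor of stress responses, was at 140, 124 and 129 CPM in L2-1, against 78.0, 64.7 and 72.9 CPM in wild type. The groups were far apart, the log2 fold change was 0.87 (SE 0.15, adjusted p 0.000153), and the NAC102 call held under all 14 alternatives. DREB19, a factor of the DREB family, averaged 46.0 CPM in L2-1 and 30.7 CPM in wild type (log2 fold change 0.59, adjusted p 0.0258). GATA19 averaged 90.4 CPM in L2-1 and 60.8 CPM in wild type (0.57, adjusted p 0.0245). RAP2.9, of the AP2 family, averaged 308 CPM in L2-1 and 213 CPM in wild type (0.53, adjusted p 0.0119). Calls of these 3 were lost without L2-1 replicate 1, without L2-1 replicate 2 and without wild-type replicate 2, and those of DREB19 and GATA19 also without wild-type replicate 3.

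The largest fitted folds among genes that rose belonged to 5 genes at low and uneven levels, also named after their values were seen. CYP79B2, which starts the synthesis of indole glucosinolates and camalexin from tryptophan, was at 2.43, 0.475 and 0.675 CPM in L2-1, against 0, 0.169 and 0 CPM in wild type. IGMT4, an indole glucosinolate methyltransferase, was at 7.79, 6.08 and 1.50 CPM in L2-1, against 0.457, 2.20 and 0.449 CPM in wild type. The first L2-1 library was the highest for both genes, and in IGMT4 the third L2-1 library lay below the second wild-type library. CYP706A1, a cytochrome P450 gene, averaged 2.52 CPM in L2-1 and 0.376 CPM in wild type. AT1G26380, of the berberine bridge enzyme family, averaged 2.12 CPM in L2-1 and 0.231 CPM in wild type, and GSTU12, a glutathione transferase, averaged 1.35 CPM in L2-1 and 0.0846 CPM in wild type. All 5 calls were lost without L2-1 replicate 1.

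Several genes of the gibberellin pathway fell in L2-1. Of 26 genes on the list, 21 were tested, 4 were called lower and none higher, where 0.722% of all tested genes were lower. Their median log2 fold change was -0.17. The summed level was 659 to 721 CPM in the L2-1 libraries and 752 to 791 CPM in the wild-type libraries, with no overlap. With the dry groups alone in the fit, 7 of the 21 were called lower, beside 3.36% of all genes.

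Among the DELLA genes, RGL2, the main DELLA repressor of germination, was at 6.23, 4.94 and 5.55 CPM in L2-1, against 14.4, 19.7 and 14.9 CPM in wild type. The groups were far apart, and the log2 fold change of RGL2 was -1.55 (SE 0.22, adjusted p 1.73e-06), which held under all 14 alternatives. The RGL2 mean of L2-1 was the lowest of all dry groups, with 19.9 CPM in abi3-12 to 204 CPM in abi3-12 dog1-4 in the mutant lines and 16.4 CPM in wild type. GAI was at 23.8, 26.3 and 26.1 CPM in L2-1, against 36.5, 35.2 and 37.3 CPM in wild type (log2 fold change -0.52, adjusted p 0.00491), a call that was lost without L2-1 replicate 1. RGA was at 5.55, 5.79 and 5.48 CPM in L2-1, against 7.86, 9.48 and 9.15 CPM in wild type. The RGA groups did not overlap, but the log2 fold change of -0.66 was not called (adjusted p 0.145). RGL3 was nearly level, at 59.1 ± 4.64 CPM in L2-1 and 60.9 ± 3.67 CPM in wild type (SD, n = 3 each).

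Called enzyme genes stood on the sides of both synthesis and inactivation. GA20OX1, a 20-oxidase of the late steps of synthesis, had no count in any L2-1 library and stood at 0.549, 1.02 and 0.538 CPM in wild type (adjusted p 0.000245). With 3 counts per library as the floor, it was at least 2.62-fold lower in L2-1. GA20OX3 was at 3.70, 4.37 and 4.58 CPM in L2-1, against 8.87, 12.0 and 11.8 CPM in wild type, a log2 fold change of -1.36 that just missed the threshold (adjusted p 0.0599) and was called with the dry groups alone in the fit (adjusted p 3.15e-06). GA2OX2, a 2-oxidase that inactivates gibberellins, was at 5.36, 4.37 and 3.83 CPM in L2-1, against 7.41, 8.21 and 8.08 CPM in wild type (log2 fold change -0.81, adjusted p 0.0221). Its call was lost without L2-1 replicates 2 and 3 and without wild-type replicates 2 and 3, each left out in turn. The 3-oxidase genes GA3OX1 and GA3OX2 had no counts in either group.

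**Figure D4:**
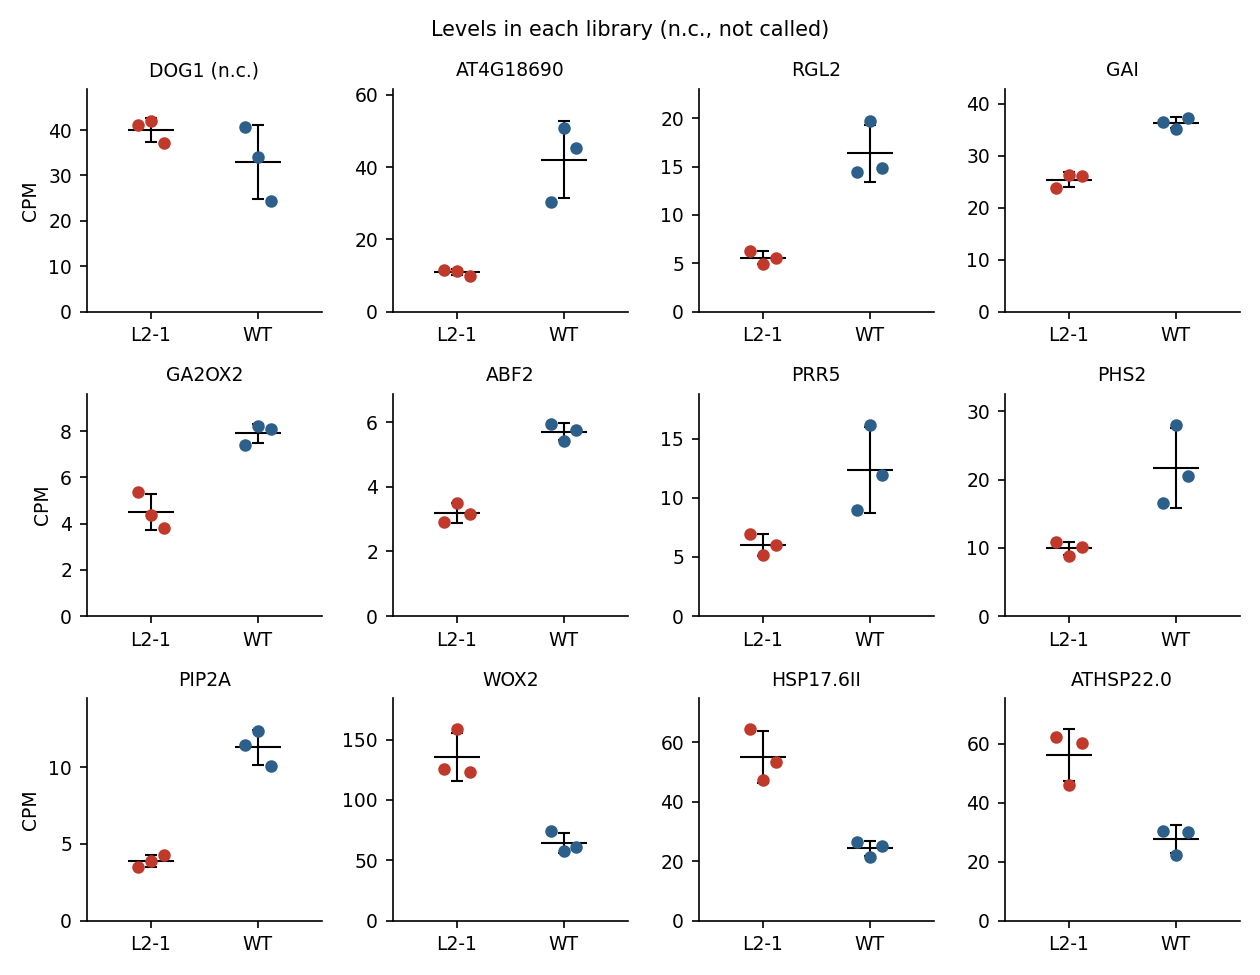
CPM (vertical axes, from 0) of 12 named genes in each library, L2-1 in red and wild type in blue, with the group mean as a bar and the SD as the error. DOG1 is the only panel whose groups overlap, and the 3 panels of rises (WOX2, HSP17.6II and ATHSP22.0) show L2-1 above wild type.

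In the DOG1 family, AT4G18690, annotated as a delay of germination protein, had the smallest adjusted p among the list genes. It was at 11.6, 11.2 and 9.90 CPM in L2-1, against 30.3, 50.7 and 45.2 CPM in wild type. All L2-1 libraries lay below the lowest wild-type library by a wide margin, and the log2 fold change was -1.95 (SE 0.23, adjusted p 1.04e-08). The call held under all 14 alternatives. Of the 6 family members tested, it was the only one called, where 0.722% of all tested genes were lower. AT4G18650 averaged 87.7 ± 2.17 CPM in L2-1 and 64.8 ± 5.96 CPM in wild type (log2 fold change 0.44, adjusted p 0.41), and AT4G18660 averaged 36.2 ± 3.48 CPM in L2-1 and 48.3 ± 2.95 CPM in wild type (-0.42, adjusted p 0.0908; SD, n = 3 each). These 2 were called with the dry groups alone in the fit, in opposite directions, where 1.88% of all genes were higher and 3.36% lower. The 3 genes lie close together on chromosome 4 and belong to 1 family, and whether reads were split between them was not tested.

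On the list of dormancy and germination regulators, which does not hold RGL2, none of the 22 genes tested was called. Their median log2 fold change was -0.11, with 16 below 0 and 6 above, while their summed level was 3341 to 3426 CPM in the L2-1 libraries and 3176 to 3307 CPM in the wild-type libraries, with no overlap. In the list, 2 genes, GATA12 and SUVH4, had no count in L2-1 and almost none in wild type. SOM, a zinc finger repressor of germination, averaged 1364 ± 23.4 CPM in L2-1 and 1274 ± 44.5 CPM in wild type. AHG1, whose protein DOG1 binds, averaged 716 ± 25.9 CPM in L2-1 and 634 ± 28.2 CPM in wild type (log2 fold change 0.17, adjusted p 0.826). RDO5 averaged 182 ± 4.87 CPM in L2-1 and 197 ± 3.08 CPM in wild type, and MFT, a seed regulator of the FT family, 42.0 ± 3.32 CPM in L2-1 and 50.2 ± 1.95 CPM in wild type (SD, n = 3 each). The light-response factor PIF1 (PIL5), at 41.6, 42.9 and 47.0 CPM in L2-1 and 56.4, 59.8 and 56.0 CPM in wild type, was the only one called with the dry groups alone in the fit (log2 fold change -0.39 and adjusted p 0.339 in the main fit). PIF1 was lower there, as were 3.36% of all genes.

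No gene of ABA synthesis or breakdown was called among 13 tested, and their median log2 fold change was 0.09. With the dry groups alone in the fit, 1 of the 13 was called higher, beside 1.88% of all genes, and none lower. ABA1, the zeaxanthin epoxidase, was at 491, 497 and 488 CPM in L2-1, against 409, 398 and 419 CPM in wild type (log2 fold change 0.27, adjusted p 0.406). NCED5, a dioxygenase of the rate-limiting step, was at 5.16, 5.60 and 6.60 CPM in L2-1, against 3.84, 2.79 and 2.96 CPM in wild type (0.86, adjusted p 0.151). L2-1 was above wild type in every library for both genes without passing the test in the main fit. CYP707A2, the main ABA hydroxylase of imbibed seed, averaged 76.7 ± 7.47 CPM in L2-1 and 65.4 ± 9.28 CPM in wild type (SD, n = 3 each), and its libraries overlapped.

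Of 35 tested genes of ABA perception and signalling, ABF2 alone was called, and it was lower, as were 0.722% of all tested genes. With the dry groups alone in the fit, 2 of the list were called higher and 5 lower, beside 1.88% and 3.36% of all genes. ABF2, a bZIP factor, was at 2.92, 3.51 and 3.15 CPM in L2-1, against 5.94, 5.42 and 5.74 CPM in wild type (log2 fold change -0.83, adjusted p 0.017). Its call was lost without L2-1 replicates 1 and 3 and without any one wild-type library. ABI5, the bZIP factor that arrests germination, was at 857, 853 and 826 CPM in L2-1, against 671, 591 and 660 CPM in wild type (log2 fold change 0.40, adjusted p 0.372). ABI3, the B3 factor of seed maturation, was at 156, 155 and 172 CPM in L2-1, against 207, 202 and 192 CPM in wild type (-0.32, adjusted p 0.135). These 2 factors differed in opposite directions with no overlap between groups, and both were called with the dry groups alone in the fit (adjusted p 0.019 for ABI5 and 0.00222 for ABI3). AT3G63210 (MARD1), annotated as a mediator of ABA-regulated dormancy and named after its values were seen, averaged 0.335 CPM in L2-1 and 1.61 CPM in wild type (log2 fold change -2.29, adjusted p 0.00466), and its call was lost without L2-1 replicates 2 and 3, each left out in turn, and without wild-type replicate 2.

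Transcripts of LEA proteins, which protect cells during drying, had values above wild type without a call. None of 19 was called. With the dry groups alone in the fit, 2 were called higher, LEA18 and AtLEA4-1, beside 1.88% of all genes. Of the 19, 18 had a value above 0, as had 9097 of all 20912 tested genes. The median log2 fold change of the 19 was 0.20. Their sum was 92594 to 96587 CPM in the L2-1 libraries and 74884 to 89630 CPM in the wild-type libraries. EM6 averaged 12754 ± 285 CPM in L2-1 and 9375 ± 1047 CPM in wild type (log2 fold change 0.44, adjusted p 0.492), and LEA18 averaged 2293 ± 315 CPM in L2-1 and 1568 ± 185 CPM in wild type (0.55, adjusted p 0.216; SD, n = 3 each). The 15 storage protein and oleosin genes had a median of 0.08, with 8 above 0 and 7 below. CRA1, a cruciferin, averaged 24981 ± 786 CPM in L2-1 and 26870 ± 914 CPM in wild type.

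Among 13 clock genes, PRR5, a repressor in the evening part of the clock, was the only one called, and lower, as were 0.722% of all tested genes. It was at 6.91, 5.13 and 6.00 CPM in L2-1, against 8.96, 16.2 and 11.9 CPM in wild type (log2 fold change -1.04, adjusted p 0.00724). The groups did not overlap, and the call was lost without L2-1 replicate 2 and without wild-type replicate 2. With the dry groups alone in the fit, TOC1 was called lower as well, beside 3.36% of all genes. The other clock genes had values between -0.23 (TOC1) and 0.13 (PRR9). Of 15 expansin and wall-loosening genes tested none was called. Their median log2 fold change was -0.51, and their sum was 31.1 to 35.3 CPM in L2-1 and 36.6 to 43.2 CPM in wild type. Single values ran from -2.7 to 3.2, with 10 below 0 and 4 above. Of the 16 members of this list, 2 had no count in any of the 6 libraries.

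The 12 largest falls were ranked among called genes with libraries apart and at least 5 CPM in a group, and several encode membrane or extracellular proteins. Called genes at lower levels, such as GA20OX1, had larger fitted falls. MSL9, a mechanosensitive ion channel, was at 1.27, 0.855 and 0.750 CPM in L2-1, against 4.57, 6.69 and 6.28 CPM in wild type. It fell by 2.63 on the log2 scale (SE 0.46, adjusted p 0.000245), which is 6.17-fold. AT5G14450, a GDSL-type lipase, was at 12.6, 8.26 and 10.1 CPM in L2-1, against 20.7, 48.7 and 35.9 CPM in wild type (log2 fold change -1.77, adjusted p 0.000292). DGR2, a DUF642 cell wall protein, was at 10.5, 12.5 and 14.1 CPM in L2-1, against 27.1, 48.4 and 39.0 CPM in wild type (-1.62, adjusted p 0.00191). In AT5G14450 and DGR2 the first wild-type library was the lowest of its group and still above all L2-1 libraries. AT2G01422, a gene with no described product, was at 1.36, 1.42 and 3.38 CPM in L2-1, against 10.5, 11.5 and 10.3 CPM in wild type (-2.34, adjusted p 0.000217).

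The remaining 6 of these 12 falls had log2 fold changes between -1.94 and -1.54. They were the protein kinase gene AT1G80640 (1.73 CPM in L2-1 and 6.76 CPM in wild type), the RING finger gene EDA40 (1.55 CPM in L2-1 and 5.16 CPM in wild type), the cysteine proteinase gene AT3G45310 (4.83 CPM in L2-1 and 14.5 CPM in wild type), the hydrolase gene AT2G24280 (2.82 CPM in L2-1 and 8.72 CPM in wild type), the receptor-like kinase gene AT3G24240 (1.66 CPM in L2-1 and 5.06 CPM in wild type) and AT1G67105 (7.72 CPM in L2-1 and 22.8 CPM in wild type). The calls of AT1G80640, EDA40, AT3G45310 and AT3G24240 held under all 14 alternatives. That of AT2G24280 was lost without L2-1 replicates 1 and 2 and without wild-type replicate 2, and that of AT1G67105 without L2-1 replicates 1 and 2 and without any one wild-type library.

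Starch breakdown was described with a list of 24 genes that was made after the calls were seen, so its counts support nothing. Of these, 23 were tested and 4 were called lower and none higher, where 0.722% of all tested genes were lower. A value below 0 was seen for 17 and above 0 for 4, and the median log2 fold change was -0.20. PHS2, the cytosolic glucan phosphorylase, was at 10.8, 8.83 and 10.1 CPM in L2-1, against 16.6, 28.0 and 20.5 CPM in wild type (log2 fold change -1.13, adjusted p 0.000462). DPE2, the cytosolic glucanotransferase that uses maltose, was at 47.3, 48.1 and 53.9 CPM in L2-1, against 63.5, 84.1 and 78.1 CPM in wild type (-0.60, adjusted p 0.00211). The debranching enzyme ISA3 averaged 31.1 ± 1.63 CPM in L2-1 and 46.2 ± 4.42 CPM in wild type (SD, n = 3 each; -0.57, adjusted p 0.00326), and the glucan phosphatase SEX4 averaged 8.68 CPM in L2-1 and 15.4 CPM in wild type (-0.82, adjusted p 0.0152). The libraries of both groups were apart in all 4. The calls of DPE2 and ISA3 were lost without wild-type replicate 2, and that of SEX4 without L2-1 replicates 1 and 2 and without wild-type replicate 2. ADG1, on the side of synthesis, was also lower, at 17.8 CPM in L2-1 and 27.4 CPM in wild type (-0.62, adjusted p 0.034), a call lost whichever library was left out.

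Plasma membrane aquaporins, a second list made after the calls were seen, had 12 of 13 genes tested, 2 called lower and none higher, where 0.722% of all tested genes were lower. PIP2A was at 3.51, 3.89 and 4.28 CPM in L2-1, against 11.4, 12.4 and 10.0 CPM in wild type (log2 fold change -1.53, adjusted p 0.000993), and its call held under all 14 alternatives. PIP1C averaged 0.546 CPM in L2-1 and 1.94 CPM in wild type (-1.77, adjusted p 0.0234), with its call lost in every leave-out but that of wild-type replicate 2. PIP1B (PIP1;2) was level, at 268 CPM in L2-1 and 269 CPM in wild type.

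Among the genes called lower at low levels, 5 transcription factor genes are named here after their values were seen, with no list behind them. APL, a MYB factor of phloem identity, was at 0.390, 0.665 and 0.375 CPM in L2-1, against 1.55, 2.37 and 1.26 CPM in wild type (log2 fold change -1.86, adjusted p 0.000217). The APL call was lost without wild-type replicate 2 only. HB-8, a vascular homeobox factor, averaged 0.170 CPM in L2-1 and 0.994 CPM in wild type. SMB, a root cap NAC factor, averaged 0.115 CPM in L2-1 and 0.817 CPM in wild type. PLT2, a factor of the root stem cell niche, averaged 0.535 CPM in L2-1 and 1.39 CPM in wild type (-1.37, adjusted p 0.029). These 3 calls were each lost under 5 or more alternatives. TMO6 had no count in any L2-1 library and averaged 0.321 CPM in wild type, at least 1.20-fold lower with 3 counts per library as the floor, and its call was lost without any one of the L2-1 libraries and without wild-type replicate 2.

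The knock-out of DOG1 was set beside L2-1. Both comparisons use the same 3 wild-type libraries, so no correlation between them is given. In dog1-4, 6405 genes (30.6%) were called against wild type, 16.9% higher and 13.7% lower. RGL2, at a log2 fold change of -1.55 in L2-1, had 2.45 in dog1-4. AT4G18690 had -1.95 in L2-1 and 0.88 in dog1-4, GAI had -0.52 in L2-1 and 0.79 in dog1-4, and PHS2 had -1.13 in L2-1 and 1.94 in dog1-4. HSP17.6II had 1.18 in L2-1 and -4.36 in dog1-4, WOX2 had 1.08 in L2-1 and -1.91 in dog1-4, and NAC102 had 0.87 in L2-1 and -2.30 in dog1-4. All 7 genes were called in both comparisons. No count of directions in dog1-4 is given over all genes called in L2-1, so these 7 do not stand for the rest. Tested directly, L2-1 was lower than dog1-4 for RGL2 by 4.00 on the log2 scale (adjusted p 1.43e-24) and higher for HSP17.6II by 5.54 (adjusted p 7.92e-23), where 39.8% of all tested genes were called between the 2 lines.

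Of the 13 called genes of the chromosome 2 run, 6 were also called in dog1-4 against wild type, 2 of them higher (AT2G46540 at 0.39 and AT2G46580 at 0.33 on the log2 scale) and 4 lower. Over all tested genes, 16.9% were called higher and 13.7% lower in dog1-4. OXA1L had a log2 fold change of 1.04 in L2-1 and -0.06 in dog1-4 (adjusted p 0.665), SDH4 had 0.86 in L2-1 and -0.03 in dog1-4 (adjusted p 0.929), and AT2G46560 had 0.92 in L2-1 and -0.17 in dog1-4 (adjusted p 0.151). The dog1-4 value farthest from 0 among the 13 genes was that of RS31a, at -0.66 (adjusted p 0.000689). AT2G01422 and AT1G67105, with -2.34 and -1.54 in L2-1, had 0.07 and 0.15 in dog1-4, and neither was called there. Low levels of these genes were not particular to L2-1. AT2G01422, at 2.05 CPM in L2-1, averaged 0.180 to 2.52 CPM in the mutant lines other than dog1-4. AT1G67105, at 7.72 CPM in L2-1, ranged over the mutant lines from 2.58 CPM in aba2-1 to 77.8 CPM in abi3-12.

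**Figure D5:**
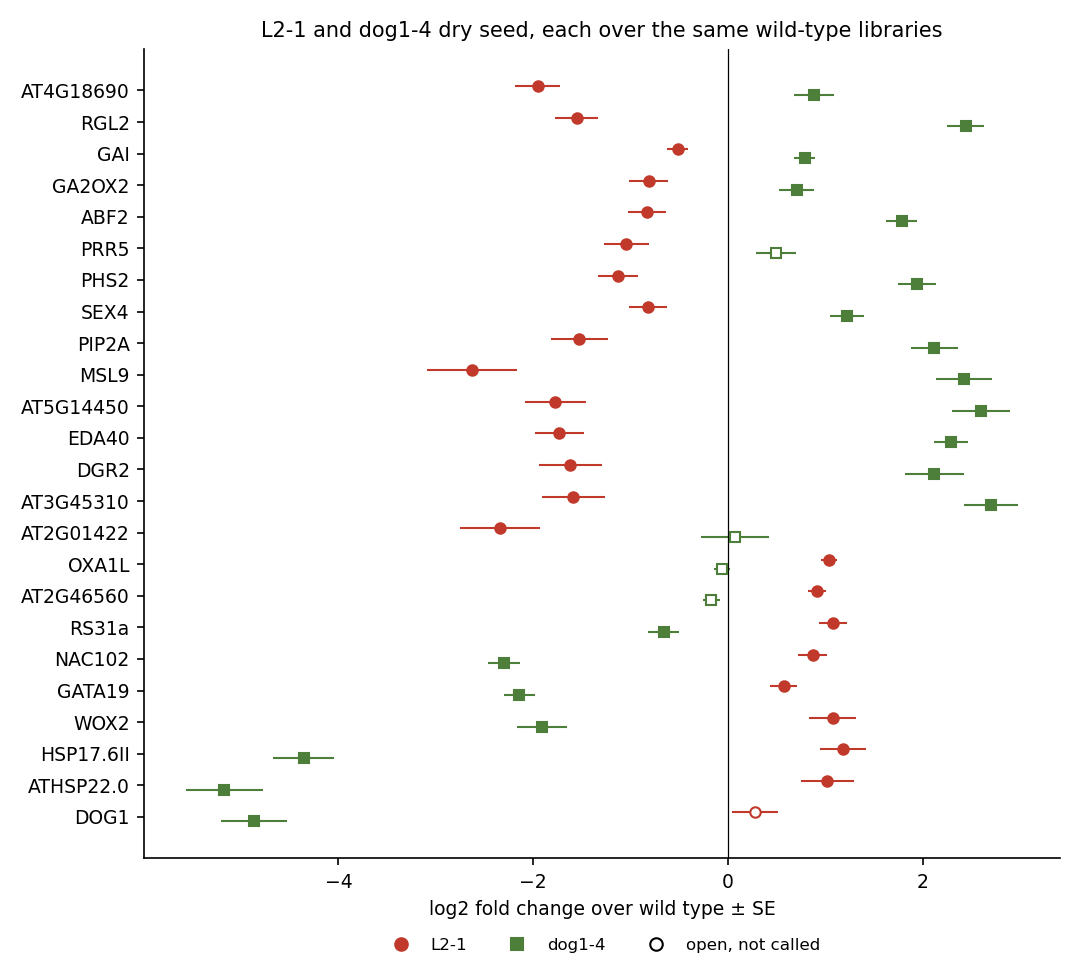
Log2 fold change over wild type with its SE (horizontal axis) of named genes in L2-1 (red circles) and dog1-4 (green squares), both against the same 3 wild-type libraries. Open symbols were not called. RGL2 stands at -1.55 in L2-1 and 2.45 in dog1-4, and OXA1L at 1.04 in L2-1 and -0.06 in dog1-4.

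The levels of these genes were also ordered over all dry groups. L2-1 had the highest mean for HSP17.6II, at 55.0 CPM, against 0.288 to 7.98 CPM in the mutant lines and 24.3 CPM in wild type. For NAC102 the mean was 131 CPM in L2-1, 6.94 to 48.0 CPM in the mutant lines and 71.8 CPM in wild type, and for WOX2 it was 136 CPM in L2-1, 0.665 to 91.5 CPM in the mutant lines and 64.4 CPM in wild type. PHS2 showed the lowest mean in L2-1, at 9.92 CPM, with 51.8 to 836 CPM in the mutant lines and 21.7 CPM in wild type. AT4G18690 took another order, with 10.9 CPM in L2-1, 0.859 CPM in abi3-6, 12.0 CPM in abi3-12, 77.5 CPM in dog1-4 and 42.1 CPM in wild type.

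Promoter motifs were searched on both strands of the 250 bases before each annotated start, with no removal of overlaps, as a description. The G-box (CACGTG) was in 9.84% of all 61 genes called higher, 12.5% of the 48 of them outside the run, 5.30% of the 151 called lower and 7.64% of all 20784 tested genes with a window. The heat shock element core (GAANNTTC) was in 3.28% of the 61, none of the 48, 5.30% of the genes called lower and 9.24% of all. The RY element (CATGCATG) was in none of the 61, 0.662% of the genes called lower and 0.698% of all, and the evening element (AAAATATCT) was in 1.64% of the 61, none of the 48, 3.97% of the genes called lower and 2.41% of all.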

How the data were processed

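Poly(A) RNA of seeds was sequenced from strand-specific libraries, per the labels' protocols. The authors deposited raw counts for 37336 genes in 123 samples. The submitters' processing notes name HISAT2 2.1.0, SAMtools, StringTie 1.3.2, Cufflinks and TAIR10, with no role or order. Symbols, gene order and promoter windows came from RefSeq TAIR10.1 by locus tag (37051 identifiers, 99.8% of counts).

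The 92 libraries of batch B (31 groups) were fitted with edgeR 4.0.16 (R 4.3.3): filterByExpr (minimum count 10), TMM, two-sided quasi-likelihood tests and Benjamini-Hochberg adjustment, called under 0.05. SE values come from the F statistic. The test was also run on counts simulated from the fit itself, with changes set only in genes of higher counts. That run does not cover calls at low counts or spread beyond the fit. Bounds use a floor of 3 counts per library and cover counting error only. Small counts in the 6 libraries were odd more often than even (60.2% of values from 1 to 10, 53.7% from 11 to 100 and 50.2% from 101 to 1000), from a source that is not recorded, so values of few counts may not be single reads. Replicates differed beyond sampling noise (chi-squared per degree of freedom 4.29 to 10.5).

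Members and gene lists were chosen with earlier results of these data known. Named genes are DOG1, runs of at least 4 called neighbours with at most 3 tested genes between, the 12 largest rises and falls with libraries apart and at least 5 CPM in a group, called list genes and list genes of defining role. Others are said to be chosen after their values were seen. Alternatives were RLE factors, library totals, no filter, DESeq2 1.42.0, a replicate block, fits of fewer groups and leaving out each library.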

Additional observations from a re-analysis of the deposited data

How the results depend on the processing

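The count of 212 genes (61 higher, 151 lower) varied with the tool, the groups fitted and the libraries kept, and the cause was not tested. DESeq2 called 406 (108 higher, 298 lower). The fit of the dry groups alone, which tested 19094 genes, called 1001 (359 higher, 642 lower), among them 211 of the 212 with the same sign, and the fit of L2-1 and wild type alone, which tested 15070 genes, called 1045 (447 higher, 598 lower), among them 182 of the 191 of the 212 that it tested. Library totals alone gave 181, of which 40 were higher. Leaving out 1 library gave 77 to 172 calls, with 26 to 57 higher and 48 to 127 lower. The run kept 12 or 13 of its 13 calls under every alternative. List genes called numbered 9, with 29 in the fit of the dry groups alone, 42 with L2-1 and wild type alone, and 5 to 7 with 1 library left out. No named gene changed sign.

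Replicate numbers were not used as pairs. Deviations of same-numbered libraries correlated at -0.046 to 0.0017 over the 3 pairs, and those of other numbers at -0.043 to 0.044. With the replicate block the count was 212, and with the replicate block in the fit of L2-1 and wild type alone it was 557 (219 higher, 338 lower), with 26 list genes. DOG1 stayed uncalled under every alternative, at 0.10 to 0.45 on the log2 scale with 1 library left out. Where depth limits the calls, as for the 17 genes called lower with L2-1 at or under 3 counts, folds are bounds. The 3 libraries per group and the unsettled source of the replicates limit all p-values.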
